A study of Homo sapiens with 6 samples.

Results

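The subunits of the SWI/SNF chromatin remodelling complexes were followed by RNA-Seq in A549 cells after knockdown of KMT9α. The genes are SMARCA2, SMARCA4, ARID1A, ARID1B, ARID2, SMARCB1, SMARCC1, SMARCC2, PBRM1 and SMARCE1. They were chosen by name as BAF and PBAF subunits, and each was represented by the listed transcript with the largest count summed over all samples. All 10 were present among the 23180 gene symbols of the deposited table, and all 10 passed the filter on low counts that left 13877 genes tested.

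A549 is an established human lung adenocarcinoma line that is known to lack functional SMARCA4 protein. All 6 samples were unmodified (genotype WT) A549 cells at passage 11. The control group, siControl, was 3 samples transfected with a control siRNA, and the knockdown group, siKMT9α, was 3 samples transfected with a single siRNA against the KMT9α subunit. Per the study's methods this was siKMT9α#1, used at 65 nM, and RNA was isolated after 3 days. The replicates were labelled as biological, and the comparison asks how the transcriptome of lung tumour cells responds when the histone methyltransferase KMT9 is depleted. Because 1 siRNA was sequenced, an effect of that siRNA and an effect of losing KMT9α cannot be told apart, and in bulk RNA fewer cells of a kind and less RNA per cell cannot be told apart either.

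SWI/SNF complexes use the energy of ATP to slide or evict nucleosomes, which opens promoters and enhancers to transcription factors. Each complex holds a single catalytic ATPase, SMARCA2 (BRM) or SMARCA4 (BRG1). In canonical BAF and in PBAF the core includes SMARCB1, SMARCE1, and SMARCC1, SMARCC2 or both. ARID1A or ARID1B defines the canonical BAF complex, whereas ARID2 and PBRM1 define PBAF. In lung cancer, cells that have lost SMARCA4 are known to depend on its paralog SMARCA2.

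The libraries held 13740097 to 19832395.5 estimated counts when each gene was counted once. N6AMT1, which encodes KMT9α, was at 10.2, 10.9 and 11.4 CPM (counts scaled to the library total and its TMM factor) with siControl and at 2.87, 3.22 and 3.35 with siKMT9α, so it was lower in every sample labelled as knockdown. TRMT112, which encodes the KMT9β subunit, was at 173.8 ± 11.5 CPM (SD, n = 3) with siControl and at 133.7 ± 13.4 (SD, n = 3) with siKMT9α. The epithelial keratins KRT7, KRT8 and KRT18 were abundant in both groups, at 1260 and 1269 CPM for KRT7, at 1281 and 528 for KRT8 and at 2041 and 1210 for KRT18 with siControl and siKMT9α, respectively. EPCAM and CDH1, from the same epithelial list, were low, at 3.85 and 0.572 CPM for EPCAM and at 3.38 and 8.60 for CDH1. Of the markers of other cell types, CD3E and COL1A2 were listed at 0 in all samples and PTPRC and PECAM1 were at most 0.105 CPM in any sample, while CD68, which tumour cells can also express, was at 80.6 and 27.8 CPM, COL1A1 at 4.28 and 2.79, THY1 at 4.30 and 3.77, and CDH5 at 0.557 and 0.067. CDKN2A, which is deleted in A549, was listed at 0 in all samples.

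Of the 10 subunits, 7 rose, 1 fell and 2 did not pass an adjusted p of 0.05 in edgeR's quasi-likelihood test. The background was wide, since 75.6% of all genes tested passed the same threshold, 37.1% as higher and 38.5% as lower. For 9 of the 10 subunits the groups shared no part of their range, against 77.0% of all genes. The threshold stated by the study, an unadjusted p under 1e-08 together with a log2 fold change beyond 0.26, was passed by 6 subunits and by 24.2% of all genes. This count rests on the test and the samples, since it was 8 with edgeR's likelihood-ratio or exact test or with no filter, and 3 without siControl replicate 2 or without siKMT9α replicate 1. ARID1A, ARID2 and SMARCC1 passed it under all 17 alternatives, SMARCA4 under 13, SMARCA2 under 12, SMARCE1 under 10, and ARID1B and SMARCB1, which missed it here, under 5 each. The median log2 fold change was 0.54 over the 10 subunits and -0.01 over all genes tested. A share of 8 called genes in 10 is thus close to the background, and what the counts show is the direction and size for each subunit.

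**Figure D1:**
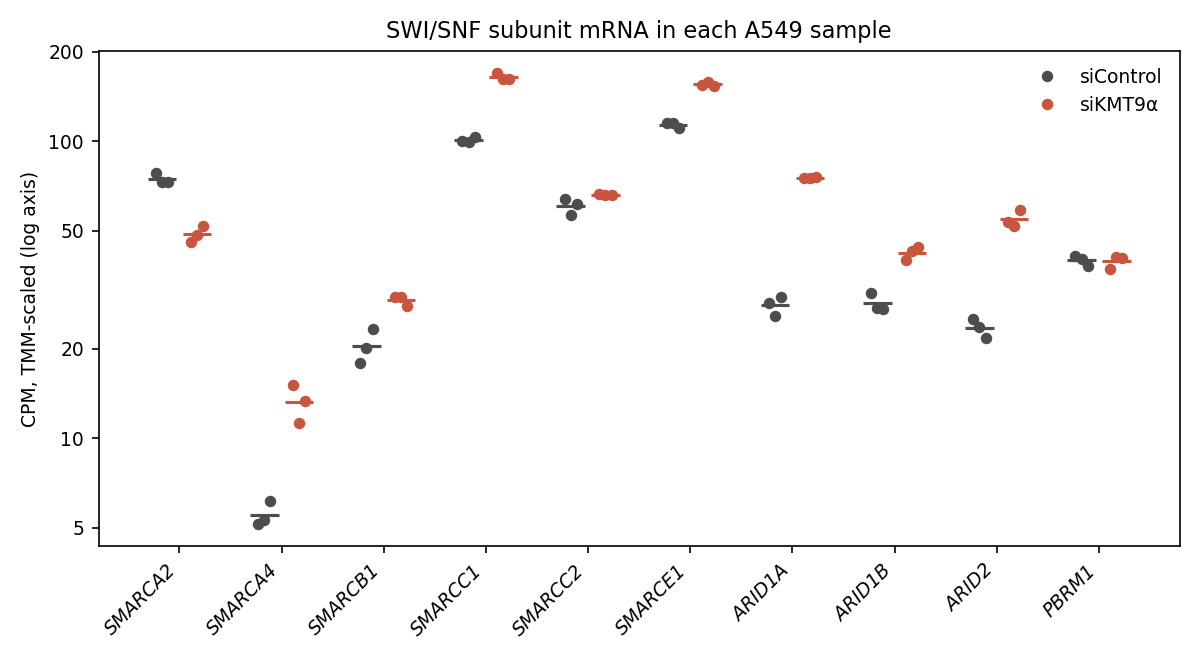
CPM of the 10 SWI/SNF subunits in each sample on a log axis, with siControl and siKMT9α as separate points. SMARCA2 is the gene whose siKMT9α points all lie below the siControl points, and PBRM1 is the gene whose groups overlap.

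The ATPase genes moved in opposite directions. SMARCA2 was at 78.3, 72.9 and 72.7 CPM in the siControl samples and at 45.95, 48.2 and 51.9 CPM in the siKMT9α samples. Every siKMT9α sample was below every siControl sample, and SMARCA2 was the subunit that fell, to 0.655 of its control level. Its log2 fold change was -0.61 (95% interval -0.73 to -0.49), and -0.87 with offsets for GC content and length. SMARCA2 is a gene that the study itself picked from these samples, so this direction is not independent evidence. Of all genes tested, 19.9% had a log2 fold change lower than -0.61. The paper also examined its picked genes by western blot and qRT-PCR, with SMARCA2 among its antibodies and primers, and those data were not used here.

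SMARCA4 was at 5.15, 5.31 and 6.13 CPM with siControl and at 15.1, 11.3 and 13.4 CPM with siKMT9α. The groups did not overlap, and the lowest siKMT9α sample was above the highest siControl sample in spite of the wider spread after knockdown (SD of 1.93 against 0.528 CPM, n = 3). The mean rose 2.39-fold, a log2 fold change of 1.26 (standard error 0.12, edgeR adjusted p = 1.72e-08), and 93.4% of all genes had a lower value. With GC and length offsets the log2 fold change was 1.14. The counts do not show which of this RNA can be translated in a line that lacks the functional protein. All 7 listed SMARCA4 transcripts passed the test with log2 fold changes of 1.26 to 1.28, and both listed SMARCA2 transcripts were at -0.61. Since the transcripts of a gene share most of their exons, they are not separate measurements.

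The RefSeq promoters (250 bases before to 50 after the most upstream listed start, build GRCh38.p14) are shown for SMARCA2, the gene that fell, and for SMARCA4 and ARID1A, the subunits with the largest rises. Capitals mark GGGCGG or its reverse complement CCGCCC, the letters of the GC box that SP family factors bind, searched on both strands.
SMARCA2, chr9:2015097-2015396, plus strand: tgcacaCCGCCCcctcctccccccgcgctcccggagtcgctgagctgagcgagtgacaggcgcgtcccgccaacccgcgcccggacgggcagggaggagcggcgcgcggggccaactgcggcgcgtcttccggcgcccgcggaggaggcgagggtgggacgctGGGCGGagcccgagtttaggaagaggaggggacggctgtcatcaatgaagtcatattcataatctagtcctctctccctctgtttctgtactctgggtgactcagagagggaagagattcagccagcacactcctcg
SMARCA4, chr19:10960780-10961079, plus strand: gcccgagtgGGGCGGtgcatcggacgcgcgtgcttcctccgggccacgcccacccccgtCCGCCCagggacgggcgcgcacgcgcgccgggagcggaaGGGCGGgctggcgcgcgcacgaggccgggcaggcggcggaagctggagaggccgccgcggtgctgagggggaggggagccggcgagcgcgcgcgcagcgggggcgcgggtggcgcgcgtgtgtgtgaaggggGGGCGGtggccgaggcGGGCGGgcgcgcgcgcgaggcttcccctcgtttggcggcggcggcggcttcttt
ARID1A, chr1:26695765-26696064, plus strand: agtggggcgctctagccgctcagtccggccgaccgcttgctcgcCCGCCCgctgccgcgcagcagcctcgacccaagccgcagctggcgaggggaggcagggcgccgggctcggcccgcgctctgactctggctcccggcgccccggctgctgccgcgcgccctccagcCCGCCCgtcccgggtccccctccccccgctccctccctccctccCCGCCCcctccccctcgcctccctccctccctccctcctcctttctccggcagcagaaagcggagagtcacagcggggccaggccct

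The SMARCA2 promoter held 2 copies and had a GC content of 66.7%, the SMARCA4 promoter held 5 copies at 81.3% GC, and the ARID1A promoter held 3 copies at 78.0% GC. Of the 7 subunits with a promoter in the table, 6 held the motif, including PBRM1, SMARCB1 and SMARCE1 with 1 copy each, against 44.5% of 27305 promoters taken in the same way. The median GC content of those promoters was 58.3%, and the shares were not matched for GC content. At the start that was read, ARID1B held 0 copies and was at 37.7% GC. More than 1 start was listed for ARID1B (2), PBRM1 (2), SMARCA4 (2) and SMARCA2 (4). The most upstream start need not be that of the counted transcript, so these values may belong to another promoter of the gene. CCAAT, in either orientation, was in 4 of the 7 and in 35.7% of all promoters, and the E2F letters TTTGGCGC or TTTCCCGC were in 0 of the 7 and in 2.31% of all. The motif was thus in the promoter of the subunit that fell and in those of subunits that rose. ARID2, SMARCC1 and SMARCC2 had no entry.

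The ARID subunits, which bind DNA and set the identity of the complex, all rose. ARID1A was at 28.5, 25.9 and 29.8 CPM with siControl and at 75.1, 75.0 and 75.7 with siKMT9α. The siKMT9α samples lay close together and far above the controls, and the mean rose 2.68-fold (log2 fold change 1.42, standard error 0.06, edgeR adjusted p = 6.94e-14), the largest change of the 10 subunits. Among all genes tested, 10.2% had a log2 fold change at least this far from 0. With offsets for GC content and length, ARID1A was at 1.15, close to SMARCA4 at 1.14.

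ARID1B, the alternative ARID subunit of BAF, was at 30.7, 27.4 and 27.1 CPM with siControl and at 39.8, 42.7 and 43.9 with siKMT9α. The groups did not overlap, but the rise of 1.48-fold (log2 fold change 0.57, 95% interval 0.43 to 0.71, edgeR adjusted p = 2.87e-07) was smaller than that of its paralog. Its unadjusted p of 8.44e-08 in the quasi-likelihood test missed the study's threshold, which it passed with edgeR's likelihood-ratio and exact tests, with DESeq2, with no filter and without siControl replicate 1. With offsets for GC content and length, its log2 fold change was 0.22 (edgeR adjusted p = 0.00188).

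ARID2, which takes the place of ARID1A and ARID1B in PBAF, was at 25.3, 23.7 and 21.8 CPM with siControl and at 53.5, 51.8 and 58.5 with siKMT9α. Every siKMT9α sample was above every control, and the mean rose 2.32-fold with a log2 fold change of 1.22 (95% interval 1.07 to 1.36, edgeR adjusted p = 6.69e-12). With GC and length offsets the log2 fold change was 0.93. PBRM1, the bromodomain subunit that belongs to the same complex as ARID2, was at 41.2, 40.1 and 38.0 CPM with siControl and at 37.2, 40.6 and 40.5 with siKMT9α. Its groups overlapped, and its log2 fold change was -0.01 with a 95% interval of -0.14 to 0.12 (edgeR adjusted p = 0.90). The PBRM1 value depended on the scaling, since offsets for GC content and length gave -0.26 (edgeR adjusted p = 0.000133), which passed the threshold as lower. The PBAF subunits ARID2 and PBRM1 thus had log2 fold changes whose intervals did not overlap.

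ARID1A also held the single match among the 10 subunits to the seed of the siRNA. An siRNA guide can lower other mRNAs through pairing of its bases 2 to 8 with a 3′ UTR, and the DNA letters complementary to that stretch of siKMT9α#1 are ACATTCA. The match is shown with 10 bases on each side and the 7-mer in capitals, at base 485 of a 3′ UTR of 1348 bases in the GRCh37 annotation.
ARID1A, chr1:27107722-27107748, plus strand: ttattgttgtACATTCAcaatcttgca
ARID1A, whose 3′ UTR held these letters, rose, and the 3′ UTR of SMARCA2, which fell, held 0 copies. An effect of the seed was not tested. Of 12821 tested genes with an annotated 3′ UTR, 12.1% held the 7-mer. A match is a description of the letters and not of a site that was shown to act.

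**Figure D2:**
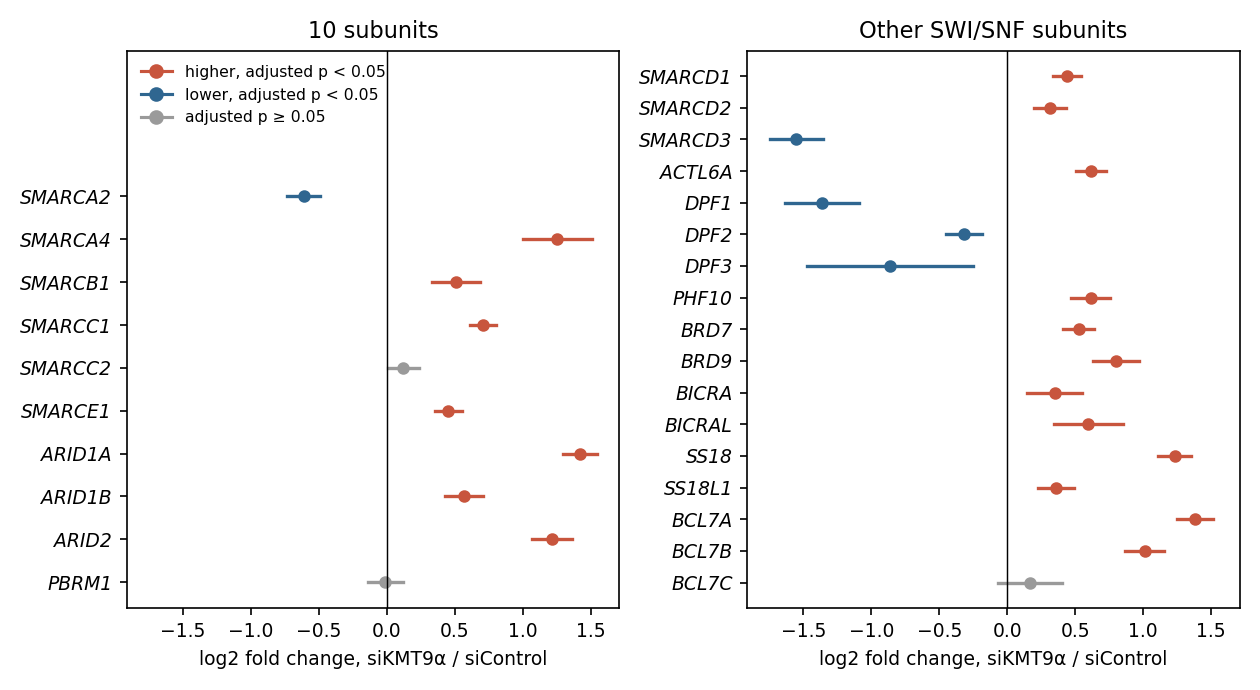
Log2 fold change of siKMT9α against siControl for the 10 subunits and for the other SWI/SNF subunits tested, with 95% intervals as bars. Within the subunits, ARID1A at 1.42, SMARCA4 at 1.26 and ARID2 at 1.22 lie farthest to the right and SMARCA2 at -0.61 is on the left of 0.

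Of the core subunits, SMARCB1, SMARCE1 and SMARCC1 rose, with smaller fold changes than those of ARID1A and ARID2. SMARCB1, a core scaffold that contacts the nucleosome and is lost in rhabdoid tumours, was at 17.9, 20.1 and 23.3 CPM with siControl and at 29.9, 29.9 and 27.8 with siKMT9α. The lowest siKMT9α sample stood above the highest control, and the mean rose 1.42-fold (log2 fold change 0.51, 95% interval 0.33 to 0.69, edgeR adjusted p = 2.23e-05). It was short of the study's threshold in this test and passed it with edgeR's likelihood-ratio and exact tests, with no filter and with GC and length offsets (log2 fold change 0.75). SMARCE1, the core subunit with an HMG DNA-binding domain, was at 114.8, 115.2 and 110.9 CPM and at 154.9, 158.6 and 153.6 CPM, respectively. The groups were well apart, a rise of 1.37-fold (log2 fold change 0.45, standard error 0.05, edgeR adjusted p = 3.48e-08). In the GENCODE annotation of GRCh37, 96.6% of the exon bases of SMARCE1 are also in a readthrough gene of the same strand, so its reads cannot be told apart from those of that gene.

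SMARCC1 (BAF155) and SMARCC2 (BAF170) are paralogous scaffolds around which the complex assembles. SMARCC1 was at 99.9, 99.4 and 102.9 CPM with siControl and at 169.3, 162.5 and 162.3 with siKMT9α. Its groups did not overlap and the mean rose 1.63-fold, with a log2 fold change of 0.71 (standard error 0.05, edgeR adjusted p = 5.69e-11) that was 0.45 with GC and length offsets. SMARCC2 was at 64.0, 56.6 and 61.3 CPM with siControl and at 66.5, 65.8 and 66.0 with siKMT9α. The siKMT9α samples were all slightly higher, but the log2 fold change of 0.12 (95% interval 0.006 to 0.24) did not pass the test (edgeR adjusted p = 0.0525). Of the 3 listed SMARCC2 transcripts, 2 passed as higher when each transcript was its own feature (edgeR adjusted p = 0.0493 and 0.0472). Without siControl replicate 1 the log2 fold change of the gene was 0.18 (edgeR adjusted p = 0.00934), and with GC and length offsets it was -0.07 (edgeR adjusted p = 0.193), so neither a call nor a direction is given for SMARCC2. Of its exon bases, 17.9% overlap another annotated gene, mostly MYL6 on the opposite strand, and whether the counting used the strand is not given in the sources used here.

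**Figure D3:**
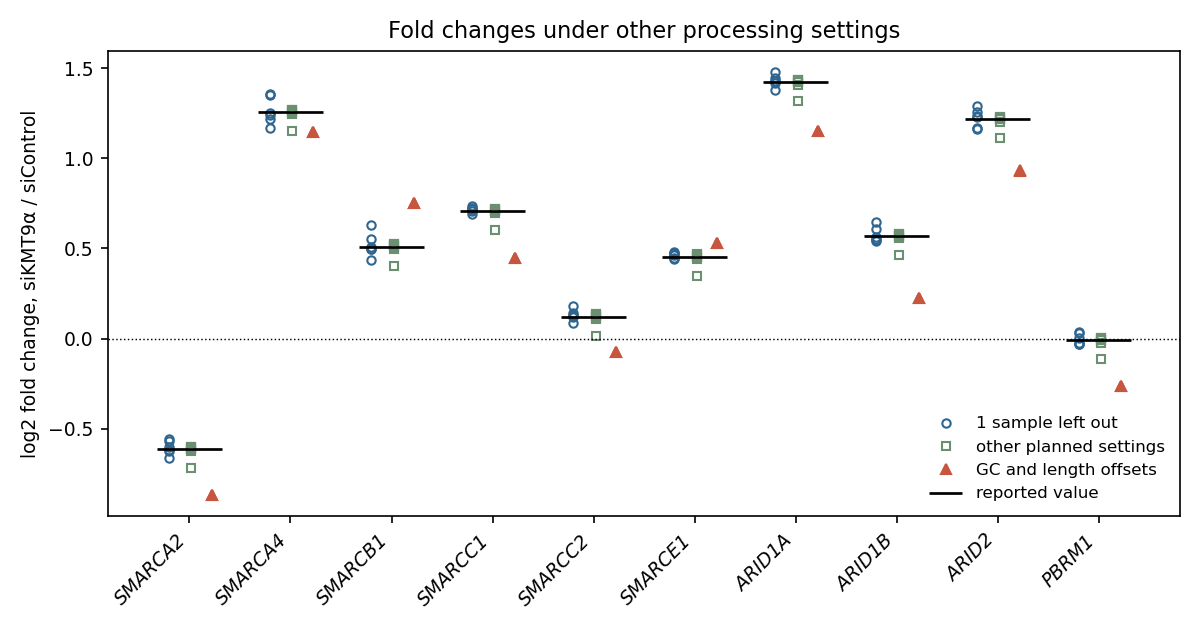
Log2 fold changes of the 10 subunits under the processing settings that were tried. The values of SMARCC2 and PBRM1 lie on both sides of 0, and those of the other 8 subunits keep their sign.

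Levels were compared between subunits as CPM per kilobase of the listed transcript. With siControl, SMARCE1 was highest at 47.3 ± 0.995 CPM per kb (SD, n = 3), followed by SMARCC1 at 17.7 ± 0.334. SMARCA2 at 13.2 ± 0.560, SMARCB1 at 12.1 ± 1.61 and SMARCC2 at 11.0 ± 0.684 came next, and the samples of neighbours in this group of genes overlapped. PBRM1 stood at 5.32 ± 0.222, above ARID1A at 3.28 ± 0.236, ARID1B at 2.97 ± 0.210 and ARID2 at 2.80 ± 0.208, whose neighbouring values overlapped.

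SMARCA4 was lowest at 1.00 ± 0.0959 CPM per kb and remained lowest with siKMT9α at 2.41. In the knockdown samples the order at the top was SMARCE1 at 64.9, SMARCC1 at 28.9, SMARCB1 at 17.3 and SMARCC2 at 11.9 CPM per kb. ARID1A at 8.81 and SMARCA2 at 8.64 overlapped, so SMARCA2, which followed SMARCC1 with siControl, was not separated from ARID1A. ARID2 followed at 6.48, PBRM1 at 5.27 and ARID1B at 4.41 CPM per kb.

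SMARCA2 and SMARCA4 are alternatives in a complex, as are ARID1A and ARID1B, whereas SMARCC1 and SMARCC2 can be present together. Ratios per kb between paralogs do not depend on a factor that scales a whole library. SMARCA2 exceeded SMARCA4 by 14.9, 13.5 and 11.6 times in the siControl samples and by 2.97, 4.19 and 3.80 times in the siKMT9α samples. The ratio was lower in every siKMT9α sample, at 0.273 of its control value on the geometric mean. ARID1A and ARID1B were near parity with siControl, with ratios of 1.04, 1.06 and 1.23, and ARID1A was the higher with siKMT9α, at ratios of 2.11, 1.97 and 1.93, a 1.81-fold difference. The SMARCC1 to SMARCC2 ratio was 1.52, 1.71 and 1.63 with siControl and 2.47, 2.40 and 2.39 with siKMT9α, which is 1.498-fold higher. All 3 pairs had non-overlapping ratios, and each gave p = 0.1 in a two-sided exact permutation test (0.1 after adjustment over the 3 pairs), the smallest value that 3 samples against 3 can give.

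As a share of the summed ATPase level, SMARCA2 was 92.9% ± 0.831 (SD, n = 3) with siControl and 78.2% ± 3.08 with siKMT9α. The summed level of SMARCA2 and SMARCA4 was 14.2 ± 0.503 CPM per kb with siControl and 11.0 ± 0.534 with siKMT9α, a ratio of 0.775, so the gain of SMARCA4 RNA was smaller than the loss of SMARCA2 RNA. In contrast, the summed level of ARID1A, ARID1B and ARID2 was 9.06 ± 0.436 and 19.7 ± 0.610 CPM per kb, a ratio of 2.17. Within this sum ARID1A went from 36.3% ± 2.50 to 44.7% ± 1.13, ARID1B from 32.8% ± 0.936 to 22.4% ± 0.726, and ARID2 was 30.9% ± 1.70 and 32.9% ± 1.16. The ratio of the summed scaffolds SMARCC1 and SMARCC2 was 1.43. Each of these 3 summed levels differed with no overlap of the samples (p = 0.1, exact permutation test, the smallest possible). Unlike ratios within a sample, the sums depend on the scaling, and they were computed with TMM factors alone. With GC and length offsets the log2 fold changes were 1.15 for ARID1A, 0.22 for ARID1B and 0.93 for ARID2. They were 0.45 for SMARCC1, -0.07 for SMARCC2, -0.87 for SMARCA2 and 1.14 for SMARCA4.

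**Figure D4:**
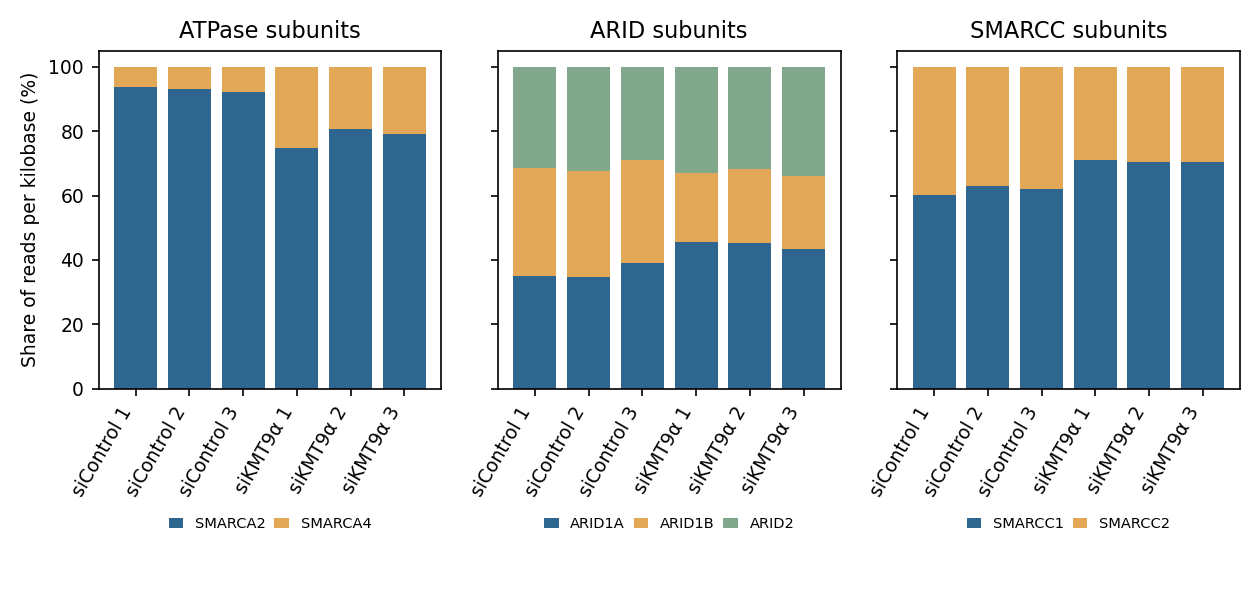
Share in percent of each gene in the summed CPM per kb of the ATPase, ARID or SMARCC genes, for each sample. The SMARCA2 share of the ATPases lies at 92.1% to 93.7% with siControl and at 74.8% to 80.7% with siKMT9α.

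The other SWI/SNF genes were taken from a list of 18 subunits, of which 17 were tested. ACTL6B, the neuronal actin-related subunit, was listed at 0 in all samples. Of the 17, 12 rose, 4 fell and BCL7C did not pass the test (log2 fold change 0.17, edgeR adjusted p = 0.18, but 0.50 with GC and length offsets, adjusted p = 3.85e-05), with a median log2 fold change of 0.44 against -0.01 over all genes. The same test was passed by 75.6% of all genes, 37.1% as higher and 38.5% as lower. The genes with the largest rises were BCL7A, from 19.1 to 49.99 CPM (log2 fold change 1.38), SS18, from 42.8 to 101 CPM (1.23), and BCL7B, from 42.8 to 86.7 CPM (1.01). BCL7 proteins are small accessory subunits, and SS18 is the subunit that is fused to SSX in synovial sarcoma.

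The genes with the largest decreases were SMARCD3, DPF1 and DPF3. SMARCD3 (BAF60C), known from heart and muscle, was at 24.3 ± 2.04 CPM with siControl and at 8.30 ± 0.604 with siKMT9α (log2 fold change -1.55, edgeR adjusted p = 1.54e-11). DPF1, which is enriched in neurons, fell from 8.74 to 3.42 CPM (log2 fold change -1.36) and DPF3, known from heart and muscle, from 1.51 to 0.865 CPM (-0.86, edgeR adjusted p = 0.0118), a level at which few reads are counted. The share of SMARCD3 in the summed SMARCD genes was 25.3% ± 0.885 and 8.19% ± 0.623, while the sum itself was 57.9 and 61.2 CPM per kb (p = 0.2, exact permutation test). The members of this family thus differed in direction, since SMARCD1 rose by 0.44 and SMARCD2 by 0.31 on the log2 scale.

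Further subunits were named after their values were seen, to cover each type of complex. DPF2, the broadly expressed DPF subunit of BAF, fell with a log2 fold change of -0.32, and ACTL6A, the actin-related subunit outside neurons, rose by 0.62. Of the PBAF genes, PHF10 rose by 0.62 and BRD7 by 0.52. In the non-canonical BAF complex, which lacks SMARCB1 and SMARCE1, the bromodomain subunit BRD9 rose by 0.80, BICRA by 0.35 and BICRAL by 0.60 (0.32 with GC and length offsets). Rises were thus found among subunits of all 3 types of complex.

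Genes for the ATPases of other remodellers were counted in the same way. Of 20 tested, 15 rose, 2 fell and 3 did not pass the test, with a median log2 fold change of 0.41. Over all genes, 75.6% passed the test, 37.1% as higher and 38.5% as lower. CHD9 (1.15), EP400 (1.08) and SRCAP (0.95) had the largest positive log2 fold changes, and ATRX (-0.38) and CHD2 (-0.37) were the genes that fell. CHD4, the ATPase of the NuRD complex, had a log2 fold change of -0.11 (edgeR adjusted p = 0.0509), CHD5 of -0.01 and HLTF of -0.05. This count depended on the scaling, with 11 higher and 5 lower under GC and length offsets. EP400 and SRCAP were then at 0.71 and 0.63, ATRX and CHD2 at -0.66 and -0.77, and CHD4 (-0.38, edgeR adjusted p = 3.13e-09) and HLTF (-0.14, edgeR adjusted p = 0.0194) passed the test as lower. SMARCA5, which had passed as higher without the offsets (0.12, edgeR adjusted p = 0.0305), passed as lower with them (-0.11, edgeR adjusted p = 0.0230). CHD4 (-0.21) and HLTF (-0.16) also passed as lower with library size alone. As in the SWI/SNF list, more of these genes rose than fell with and without the offsets.

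PRC2, the methyltransferase complex for histone H3 lysine 27 that SWI/SNF is known to oppose, was also listed. Of its 11 genes 7 rose, 3 fell and RBBP7 did not pass the test (log2 fold change 0.08, edgeR adjusted p = 0.117), with a median log2 fold change of 0.38. The background was again 75.6% of all genes, 37.1% as higher and 38.5% as lower. With GC and length offsets RBBP7 was at 0.15 and passed the test (edgeR adjusted p = 0.00205). SUZ12, a core subunit, was at 26.5 ± 1.604 CPM with siControl and at 89.8 ± 2.90 with siKMT9α, a log2 fold change of 1.77. The catalytic subunit EZH2 rose by 0.87 and the accessory subunit AEBP2 by 0.71, whereas EED (-0.36), MTF2 (-0.32) and PHF1 (-0.31) fell. The fall of PHF1 was -0.14 with GC and length offsets and did not pass the test there (edgeR adjusted p = 0.144). RBBP4 changed direction. It was among the genes that rose (0.15, edgeR adjusted p = 0.0145) and passed as lower with these offsets (-0.13, edgeR adjusted p = 0.0112).

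The genes whose pattern over the 6 samples was most like that of SMARCA2 were ATXN3, a deubiquitinase, WBP5, and UBE2B, a ubiquitin-conjugating enzyme. Their centred log2 CPM differed from that of SMARCA2 by a root mean square of 0.023, 0.026 and 0.027, the smallest among 13076 genes with a mean of at least 1 CPM. Their log2 fold changes were -0.62, -0.65 and -0.60. With a single contrast in 6 samples, such likeness mostly restates a similar fold change.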

How the data were processed

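RNA was extracted from 6 A549 samples with Trizol and sequenced on an Illumina platform. Per the study's methods and the submitters' processing notes, reads were aligned to hg19 with STAR and counted on RefSeq transcripts with HOMER, and the authors deposited estimated counts per transcript and sample without normalization (36.4% of values were not whole, in steps of 0.5). HOMER's counting options and the strand setting are not given in the sources used here. The deposited table also holds the authors' fold change (a ratio), p-value and adjusted p-value for each transcript, which were not used.

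The table has 38767 rows, and the 1182 rows without a symbol and counts were left out. Per-sample columns that matched no sample numbered 0. For each of the 23180 symbols the transcript with the highest count over all samples was kept. Estimated counts were rounded and fitted in edgeR 4.0.16 (R 4.3.3) with TMM factors, filterByExpr and the quasi-likelihood F test, adjusted by the Benjamini-Hochberg method over 13877 genes. The biological coefficient of variation was 4.47%. CPM values were scaled by TMM factors, which were 1.03 to 1.04 for siControl and 0.96 for siKMT9α. Depth limits mainly genes of low counts such as DPF3. Ratios and sums of paralogs were compared by two-sided exact permutation tests (SciPy 1.17.1).

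The subunits and gene lists were chosen with earlier results of these data known. Named genes were the 10 subunits, N6AMT1 and TRMT112, from each other list the 3 largest called changes in each direction and the genes not called or not tested, and the 3 genes most like SMARCA2, except where the text says that a gene was named after its value was seen. The markers were EPCAM, CDH1, KRT7, KRT8 and KRT18 (epithelial), PTPRC, CD3E and CD68 (leukocyte), PECAM1 and CDH5 (endothelial), COL1A1, COL1A2 and THY1 (fibroblast) and CDKN2A. Of these, EPCAM was at 3.85 and 0.572 CPM and CDH1 at 3.38 and 8.60 CPM with siControl and siKMT9α.

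GC content, 3′ UTRs and overlaps came from the GENCODE annotation of GRCh37, which is the build of the files, and promoters from a RefSeq table of GRCh38.p14 matched by symbol. As alternatives, DESeq2 1.42.0, the exact and likelihood-ratio tests of edgeR, scaling by library size alone or RLE factors, no filter, a minimum count, a replicate block and leaving out each sample were used. Offsets for GC content and length were added after the data were seen.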

Additional observations from a re-analysis of the deposited data

How the results depend on the processing

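The log2 fold changes of the 8 called subunits kept their sign and stayed past the threshold in all 136 alternative values. Leaving out each sample in turn gave -0.66 to -0.56 for SMARCA2, 1.17 to 1.35 for SMARCA4, 1.38 to 1.48 for ARID1A, and 18 to 21 called transcripts of the subunits in place of 20. GC and length offsets moved these genes outside those ranges, to -0.87 for SMARCA2, 1.14 for SMARCA4 and 1.15 for ARID1A. SMARCC2 was called with RLE factors (0.13), with no filter on low counts (0.13) and without siControl replicate 1 (0.18), and was -0.074 with GC and length offsets and -0.072 with these and the replicate block. PBRM1 changed sign with DESeq2 (0.000501), RLE factors (0.0028) and no filter (0.0024), and without siControl replicate 1, siControl replicate 2 (0.0048) or siKMT9α replicate 1, and ranged from -0.032 to 0.036 with each sample left out. It was called lower at -0.26 with GC and length offsets, with and without the block, which made 2 subunits called lower in place of 1. The other remodeller ATPases had 4 genes called lower with library size alone and 5 with GC and length offsets, with and without the block, against 2. Over all genes, library size alone gave 4359 higher and 6212 lower against 5150 and 5342, and shifted the median log2 fold change to -0.12. The count past the study's threshold, 3357, was 5962 with the likelihood-ratio test, 5924 with edgeR's exact test, 6070 with no filter, 4722 with GC and length offsets, 5887 with these and the block, and 2326 to 4085 with each sample left out. The causes were not tested.

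Samples of equal number did not deviate together (correlations of -0.08, 0.02 and -0.08). This cannot show whether samples of equal number were prepared together, which the labels do not state, and they were treated as unpaired. With a replicate block, 2342 genes and 3 subunits passed the study's threshold, 18 transcripts of the subunits were called, and SMARCA2 was at -0.61. Depth limits genes of low counts such as DPF3 and SMARCA4 more than the other subunits.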
